A study of Mus musculus with 7 samples.

Results

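The genes described here encode the mouse MHC class II molecules, the proteins that load and edit their peptides, and CIITA, the factor that switches them on. They are H2-Aa, H2-Ab1, H2-Eb1, Cd74, H2-DMa, H2-DMb1, H2-DMb2, H2-Oa, H2-Ob and Ciita, taken by symbol from the deposited gene table, and these 10 are 10 of its 25571 rows. All 10 passed the low-count filter. RNA came from CD11b+ tumour-associated macrophages sorted out of orthotopic T387 glioblastoma xenografts. The hosts were NSG mice, an immunodeficient strain on the NOD background that has no T, B or NK cells of its own. Mice of the Pracinostat group were gavaged with this histone deacetylase inhibitor from day 7 after tumour implantation, for 3 weeks with 4 doses of 30 mg/kg in each, and gave 4 libraries. Mice of the DMSO group received the DMSO-containing solvent and gave 3 libraries. The animals behind each library and their age are not stated in the labels used here, so p-values measure the spread between these samples. The study asked about drugs that act on glioblastoma macrophages. The comparison addressed here is whether class II genes stood at another level after treatment, and the rest of the account is how these genes varied together over the 7 libraries.

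A class II molecule is a pair of an alpha and a beta chain that shows peptides from the endosome to CD4+ T cells. The invariant chain, encoded by Cd74, holds the new pair and fills its groove until H2-DM exchanges the remnant for peptide, and H2-DO restrains H2-DM. Transcription of this set of genes depends on CIITA, a co-activator without DNA binding of its own, which is recruited by RFX, CREB and NF-Y factors sitting on the X and Y boxes of their promoters. Dendritic cells and B cells carry class II all the time. Macrophages and microglia carry little at rest and more after interferon-gamma.

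The promoter boxes are shown because they are the sequences through which CIITA is known to act on class II genes. RefSeq promoters on GRCm38.p6, which run from 250 bases before to 50 bases after each gene start, could be matched for 7 of the 10 genes. H2-Ab1, Cd74 and Ciita are not among them. The stretches below lie on chromosome 17, are written 5′ to 3′ on the strand of the gene, and end 10 bases after the Y box. Capitals mark the Y box letters GATTGG, the X box letters (AAC, 3 bases of any kind, TGATG) and, in H2-Aa, the CRE letters TGACGTCA.
H2-Aa (chr17:34287857-34287922, minus strand): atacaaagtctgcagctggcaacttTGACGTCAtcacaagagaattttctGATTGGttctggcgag
H2-Eb1 (chr17:34305757-34305822, plus strand): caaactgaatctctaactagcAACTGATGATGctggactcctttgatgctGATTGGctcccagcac
H2-DMb1 (chr17:34153079-34153144, plus strand): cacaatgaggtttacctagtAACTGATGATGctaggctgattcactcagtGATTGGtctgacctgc
H2-DMb2 (chr17:34145108-34145173, plus strand): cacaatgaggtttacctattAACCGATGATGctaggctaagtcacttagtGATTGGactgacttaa
H2-Ob (chr17:34238797-34238862, plus strand): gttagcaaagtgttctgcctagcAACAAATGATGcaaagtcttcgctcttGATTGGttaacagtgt
H2-Oa (chr17:34092285-34092350, plus strand): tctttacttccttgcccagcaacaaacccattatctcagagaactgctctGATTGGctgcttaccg

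GATTGG, searched on both strands, was present in the promoters of all 7 matched genes, in H2-DMa in 1 of its 2 listed windows. H2-DMa is not printed above, since its match lay on the other strand or far before the gene start. The same letters were in 16.1% of all 32851 promoters on either strand and in 8.71% on the strand of the gene. The X box letters were found in H2-Eb1, H2-DMb1, H2-DMb2 and H2-Ob, against 0.615% of all promoters. In these 4 genes it began 27 to 30 bases before the Y box. That arrangement, with starts 15 to 30 bases apart, was found in 6 promoters of the table (0.0183%), the other 2 being those of 1700048F04Rik and Cic. TGACGTCA was found in H2-Aa and in 1.79% of all promoters. The letters were chosen after these promoters were seen, and a match is a description, not a bound site.

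Total counts lay between 10142753 and 16950597 per library, with 16319 to 19244 genes detected, and no 2 libraries were near-duplicates. Itgam, which encodes the CD11b used for the sort, stood at 1448, 1530, 2579 and 1692 CPM in Pracinostat replicates 1 to 4 and at 1688, 1410 and 1318 CPM in DMSO replicates 1 to 3. CPM are counts scaled to the size of the library, with TMM factors. Ptprc, the pan-leukocyte gene CD45, averaged 599.0 ± 66.4 CPM (SD, n = 4) with Pracinostat and 582 ± 135 CPM (SD, n = 3) with DMSO. The 12 homeostatic microglia genes in the table summed to 6898 to 11340 CPM with Pracinostat and 6335 to 7948 CPM with DMSO. The B cell list summed to 37.5 to 81.5 CPM with Pracinostat and 47.0 to 72.7 CPM with DMSO, most of it from Cd22 (32.7 to 75.4 CPM with Pracinostat and 30.5 to 61.5 CPM with DMSO). Cd79b lay between 3.901 and 4.83 CPM with Pracinostat and between 5.11 and 9.08 CPM with DMSO, and Ebf1 between 0 and 3.54 CPM with Pracinostat and between 2.19 and 7.84 CPM with DMSO. The B cell genes Cd79a, Ms4a1, Pax5 and Blk were each under 1 CPM in every library. Pracinostat replicate 3 and DMSO replicate 3 stood apart in the class II genes, as described below, and values are therefore also given without them. The labels tie nothing to a shared replicate number.

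No class II gene, nor Cd74 nor Ciita, differed between Pracinostat and DMSO by the test. By edgeR's quasi-likelihood test, 0 of the 10 had an adjusted p under 0.05, and 0 had an unadjusted p under 0.05. Over all 15822 genes tested, 0 (0%) passed the first threshold and 661 (4.18%) the second. DESeq2 and limma-voom also called 0 of the 10. All 10 genes had groups whose values overlapped, and the share of genes without overlap over the whole table was 6.1%. The median log2 fold change of the 10 was 0.14, with 7 positive and 3 negative, beside 0.02 over all genes tested.

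**Figure D1:**
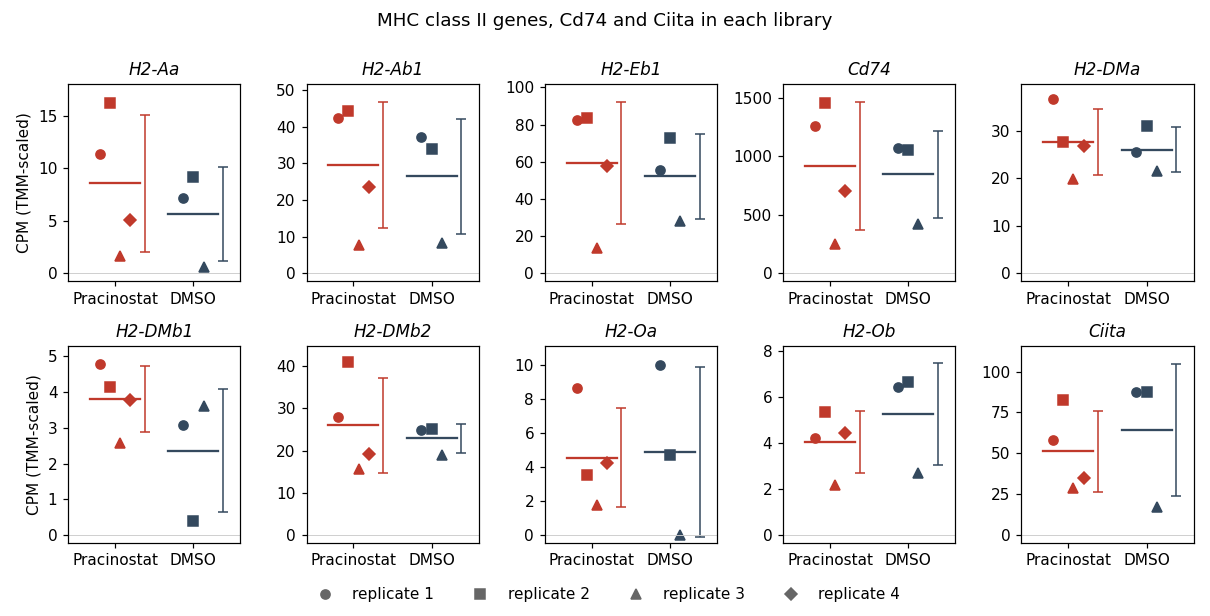
Level of each gene in CPM (vertical axes, TMM-scaled, a separate linear scale per gene), with Pracinostat libraries on the left of each panel and DMSO libraries on the right. Symbols are replicates, horizontal lines are group means and the bars beside them are ± 1 SD (n = 4 and n = 3); the triangles, replicate 3 of each group, are the lowest points in every panel but that of H2-DMb1.

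The classical chains come first. H2-Aa, the alpha chain of I-A, stood at 11.4, 16.2, 1.65 and 5.03 CPM in Pracinostat replicates 1 to 4 and at 7.15, 9.20 and 0.58 CPM in DMSO replicates 1 to 3. The lowest value of each group was its replicate 3, and the groups overlapped. Its means were 8.56 ± 6.49 CPM (SD, n = 4) with Pracinostat and 5.64 ± 4.5 CPM (SD, n = 3) with DMSO, a log2 fold change of 0.61 ± 0.89 (SE) with a 95% interval of -1.35 to 2.56.

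H2-Ab1, the I-A beta chain, stood at 42.4, 44.2, 7.67 and 23.7 CPM in Pracinostat replicates 1 to 4 and at 37.1, 33.8 and 8.37 CPM in DMSO replicates 1 to 3. The same 2 libraries were the lowest. The log2 fold change was 0.16 ± 0.68 (SE), with an interval of -1.43 to 1.75. H2-Eb1, the I-E beta chain, stood at 82.5, 83.7, 13.9 and 57.5 CPM in Pracinostat replicates 1 to 4 and at 55.6, 73.0 and 27.9 CPM in DMSO replicates 1 to 3. Its log2 fold change was 0.19 ± 0.62 (SE), interval -1.30 to 1.67, and its lowest library was Pracinostat replicate 3. H2-Ea, the alpha chain that pairs with H2-Eb1, is not one of the 10 genes. It was at 0.545 CPM in Pracinostat replicate 1 and had no count in the other 6 libraries. NOD mice are known not to make the H2-Ea chain.

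Cd74, the invariant chain, was the most abundant of the set. It stood at 1257, 1456, 248.0 and 703.8 CPM in Pracinostat replicates 1 to 4 and at 1067, 1052 and 420.0 CPM in DMSO replicates 1 to 3. The means of 916 ± 547 CPM (SD, n = 4) with Pracinostat and 846 ± 369 CPM (SD, n = 3) with DMSO lay closer together than 1 SD of either group. The log2 fold change was 0.11 ± 0.67 (SE), with an interval of -1.55 to 1.78. Depth was no limit for this gene, which had 3751 to 23913 counts in the Pracinostat libraries and 6520 to 13570 counts in the DMSO libraries.

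The peptide exchange factor H2-DM is made of the H2-DMa chain and 1 of 2 beta chains. H2-DMa was the steadiest of the 10, at 36.7, 27.6, 19.8 and 26.8 CPM in Pracinostat replicates 1 to 4 and 25.6, 31.0 and 21.6 CPM in DMSO replicates 1 to 3. Its log2 fold change of 0.09 ± 0.28 (SE) had an interval of -0.50 to 0.68, which lies within a 2-fold change either way. H2-DMa overlaps Brd2 on the other strand, at 397 to 574 CPM with Pracinostat and 337 to 523 CPM with DMSO. Its counts could include Brd2 reads, and their part in these levels was not tested. H2-DMb2 stood at 28.0, 40.9, 15.7 and 19.1 CPM in Pracinostat replicates 1 to 4 and at 24.8, 25.0 and 18.9 CPM in DMSO replicates 1 to 3. Here too the interval, -0.53 to 0.89 around 0.18 ± 0.33 (SE), lay within 2-fold.

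H2-DMb1 had its low library elsewhere. It stood at 4.77, 4.14, 2.58 and 3.77 CPM in Pracinostat replicates 1 to 4 and at 3.07, 0.40 and 3.61 CPM in DMSO replicates 1 to 3. The low library was DMSO replicate 2, with 5 counts, and the groups overlapped. The log2 fold change was 0.69 ± 0.85 (SE), with an interval of -1.14 to 2.52. The longest open reading frames of H2-DMb1 and H2-DMb2 were identical at 754 of 786 bases (95.9%), so the estimated counts can pass reads from either gene to the other, and single values of the pair are uncertain. H2-DMb2 was 5.08 to 9.88 times H2-DMb1 with Pracinostat. With DMSO the ratio was 8.08, 62.6 and 5.23 in replicates 1 to 3. Summed over both genes, H2-DM beta stood at 32.7, 45.1, 18.3 and 22.9 CPM with Pracinostat and at 27.8, 25.4 and 22.5 CPM with DMSO, again with the lowest value of each group in replicate 3.

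The chains of H2-DO, the modulator of H2-DM, were at the low end. H2-Oa stood at 8.66, 3.53, 1.78 and 4.25 CPM in Pracinostat replicates 1 to 4 and at 9.98, 4.72 and 0 CPM in DMSO replicates 1 to 3. DMSO replicate 3 had 0 counts, which allows up to 0.193 CPM (3 counts), and DMSO replicate 1 was the highest of all 7 libraries. The log2 fold change of -0.10 ± 1.15 (SE) had the widest interval of the set, -2.64 to 2.44. H2-Ob stood at 4.23, 5.36, 2.18 and 4.45 CPM in Pracinostat replicates 1 to 4 and at 6.45, 6.64 and 2.71 CPM in DMSO replicates 1 to 3. The 2 highest libraries were DMSO ones, but the groups overlapped, and the log2 fold change was -0.38 ± 0.63 (SE).

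Ciita, the co-activator itself, stood at 58.2, 82.7, 29.0 and 34.7 CPM in Pracinostat replicates 1 to 4 and at 87.5, 87.8 and 17.3 CPM in DMSO replicates 1 to 3. DMSO held both its 2 highest libraries and its lowest one. Means were 51.2 ± 24.5 CPM (SD, n = 4) with Pracinostat and 64.2 ± 40.6 CPM (SD, n = 3) with DMSO, and the log2 fold change was -0.33 ± 0.62 (SE), with an interval of -1.80 to 1.14. Without DMSO replicate 3 it was -0.78 and did not pass either.

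**Figure D2:**
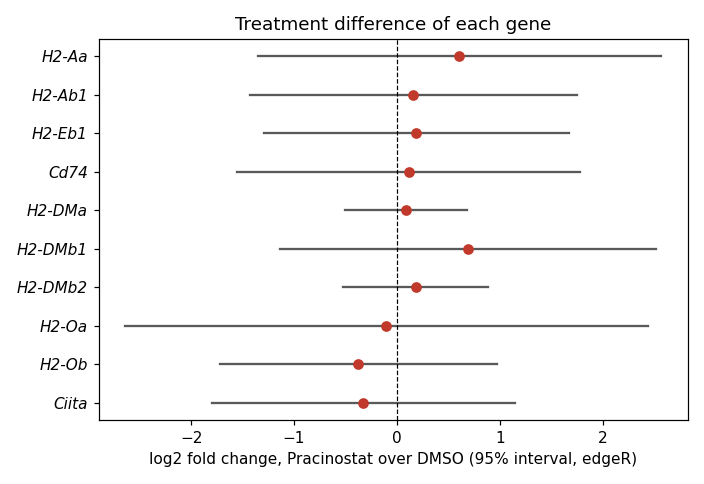
Log2 fold change of each gene, Pracinostat over DMSO (horizontal axis), with points for the edgeR estimate and lines for its 95% interval over 4 Pracinostat and 3 DMSO libraries. Every interval holds 0, and those of H2-DMa (-0.50 to 0.68) and H2-DMb2 (-0.53 to 0.89) are the shortest.

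All 10 edgeR adjusted p-values were 0.9998, and the unadjusted ones lay between 0.432 for H2-DMb1 and 0.931 for H2-Oa. The intervals of 7 genes (H2-Aa, H2-Ab1, H2-Eb1, H2-DMb1, H2-Oa, Cd74 and Ciita) held both a 2-fold fall and a 2-fold rise, so changes of that size either way lie within the error of these libraries. The sign of the estimate turned with 1 library for several genes. Without DMSO replicate 3 the log2 fold change was -0.27 for H2-Ab1, -0.11 for H2-Eb1, -0.03 for H2-DMa and -0.21 for Cd74. Without Pracinostat replicate 2 it was -0.11 for H2-Ab1, -0.03 for H2-Eb1, -0.13 for H2-DMb2 and -0.20 for Cd74. Without Pracinostat replicate 1 it was -0.06 for H2-Ab1, -0.0046 for H2-Eb1, -0.07 for H2-DMa and -0.07 for Cd74.

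Levels can be set beside each other only per length, as CPM per kilobase of merged exons in GENCODE M21. Cd74 was first in all 7 libraries, at 647 ± 387 CPM per kilobase (SD, n = 4) with Pracinostat and 598 ± 261 (SD, n = 3) with DMSO. H2-Eb1 was next, at 35.6 ± 19.6 (SD, n = 4) with Pracinostat and 31.2 ± 13.6 (SD, n = 3) with DMSO, and no library's H2-Eb1 reached any library's Cd74. Below it, in order of the mean level per kilobase, came H2-Ab1, H2-DMb2, H2-DMa, Ciita, H2-Aa, H2-Oa, H2-DMb1 and H2-Ob. In all of these neighbouring pairs the ranges over the 7 libraries overlapped, although H2-Eb1 exceeded H2-Ab1 and H2-DMb2 exceeded H2-DMa in 7 of 7 libraries. Ciita and H2-Aa could not be ordered, with Ciita higher in 4 of 7 libraries. H2-Ob, the lowest, stood at 1.15 ± 0.382 CPM per kilobase (SD, n = 4) with Pracinostat and 1.499 ± 0.632 (SD, n = 3) with DMSO. I-A needs both chains, and H2-Aa counts were 0.212 to 0.366 times those of H2-Ab1 with Pracinostat and 0.0692 to 0.272 times with DMSO, before any correction for length.

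The differences between libraries were small for H2-DMa and H2-DMb2 and larger for the other genes. The highest library exceeded the lowest 27.9-fold for H2-Aa, 5.76-fold for H2-Ab1, 6.02-fold for H2-Eb1, 5.87-fold for Cd74 and 5.07-fold for Ciita, against 1.86-fold for H2-DMa and 2.6-fold for H2-DMb2. The lowest H2-Aa library, DMSO replicate 3, had 9 counts, so the range and SD of this gene are imprecise. The SD of log2 CPM over the 7 libraries was 1.6 for H2-Aa, 1.08 for H2-Ab1, 0.96 for H2-Eb1, 0.93 for Cd74 and 0.92 for Ciita. It was 2.08 for H2-Oa, the largest of the 10, 1.09 for H2-DMb1, which differed 11.9-fold, and 0.59 for H2-Ob, which differed 3.04-fold. The median over all genes tested was 0.53, and 68.8% to 85.5% of genes tested varied less than H2-Aa, H2-Ab1, H2-Eb1, Cd74 or Ciita, and 97.3% less than H2-Oa. H2-DMa, at 0.30, and H2-DMb2, at 0.45, varied less than the median gene.

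The genes were low in the same libraries. For 9 of the 10, all but H2-DMb1, the 2 lowest of the 7 libraries were Pracinostat replicate 3 and DMSO replicate 3. The share of all tested genes with the same 2 lowest libraries is not given here. Genes outside the set had them too, among them Bambi and Stk17b, so the pattern is not particular to class II. Pracinostat replicate 3 was the lowest for H2-Ab1, H2-Eb1, H2-DMa, H2-DMb2, H2-Ob and Cd74, and DMSO replicate 3 for H2-Aa, H2-Oa and Ciita. At the other end, Pracinostat replicate 2 was the highest for H2-Aa, H2-Ab1, H2-Eb1, H2-DMb2 and Cd74. H2-Ob and Ciita were highest in DMSO replicate 2.

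**Figure D3:**
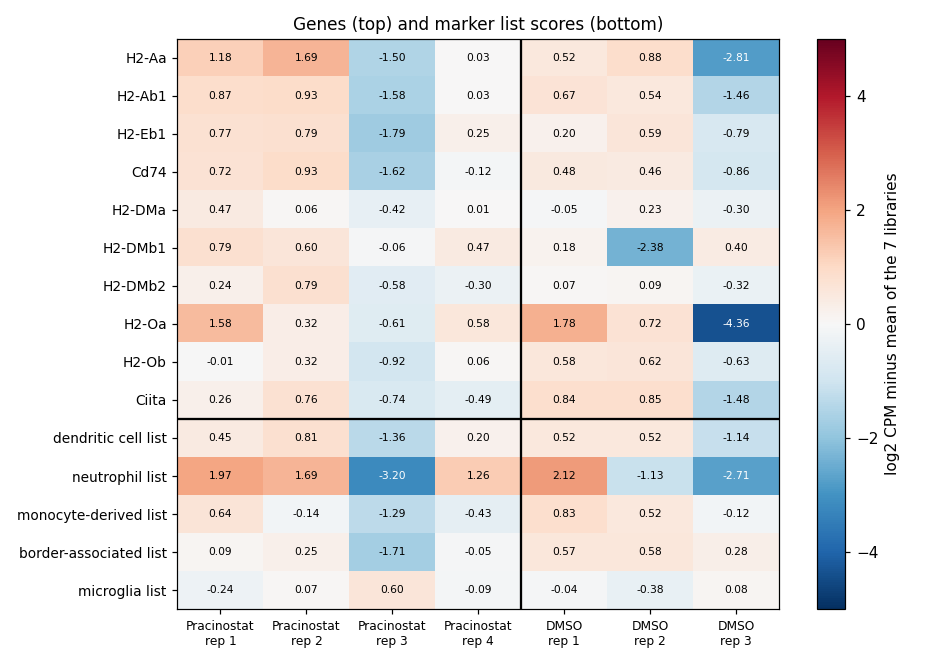
Log2 CPM of each gene minus its mean over the 7 libraries (rows, top block) and mean of the same quantity over lists of marker genes (bottom block), by library (columns, Pracinostat left of the line, DMSO right). Blue is below the mean and red above; 9 of the 10 genes have their 2 lowest values in Pracinostat replicate 3 and DMSO replicate 3, where the dendritic cell and neutrophil lists are also lowest.

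Over the 7 libraries the 45 pairs of genes had Pearson's r of log2 CPM between -0.358 and 0.974, with a median of 0.80, and 37 were positive. By exact permutation of the pairings (two-sided, adjusted over the 45 pairs), 19 passed 0.05, and 12 did so with Spearman's rho. Unadjusted, 25 had a p under 0.05. The 19 pairs that passed were all among the 9 genes other than H2-DMb1, whose 36 pairs were all positive (0.425 to 0.974). How often pairs of other genes pass is not given here, so the count is not shown to be particular to class II. Genes outside the set also followed its mean level, given below. Ginm1, Ddr1 and Rpl19-ps11 had r of 0.987, 0.984 and 0.979 with it. They come from the top of a ranking of 10027 genes, so their r is a description.

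The tightest group was H2-Aa, H2-Ab1, H2-Eb1 and Cd74. Their 6 pairs had r between 0.844 and 0.974 and rho between 0.893 and 1.0, and 5 of the 6 passed. The closest pair was H2-Ab1 and Cd74, whose libraries fell in the same order (r = 0.974, rho = 1.0, exact permutation p = 0.0001984, adjusted 0.00893). Cd74 was 29.6, 32.9, 32.3 and 29.7 times H2-Ab1 in Pracinostat replicates 1 to 4 and 28.7, 31.1 and 50.2 times in DMSO replicates 1 to 3. The ratio was thus near-constant in 6 libraries, although Cd74 itself differed 5.87-fold, and DMSO replicate 3 was the exception. These 6 pairs were also positive without the 2 libraries farthest from the median, Pracinostat replicate 3 and DMSO replicate 3. There r lay between 0.698 and 0.983, and no p was computed. As deviations from the group means, r lay between 0.877 and 0.979, but 0 of the 45 pairs of the whole set passed that way.

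**Figure D4:**
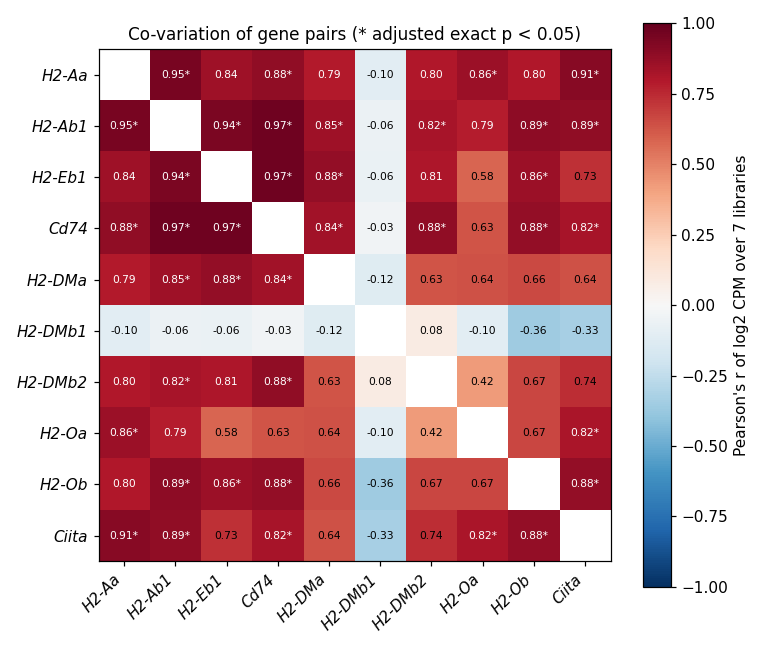
Pearson's r of log2 CPM over the 7 libraries for each pair of genes (rows and columns), from blue at -1 to red at 1, with asterisks where the exact permutation p adjusted over 45 pairs was under 0.05. The block of H2-Aa, H2-Ab1, H2-Eb1 and Cd74 has r of 0.84 to 0.97, and the row of H2-DMb1 lies between -0.36 and 0.08. The rho of H2-DMb1, not drawn, lies between -0.21 and 0.57.

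Ciita varied with these 4 genes too, and its r overlapped with those among them. With H2-Aa, H2-Ab1, H2-Eb1 and Cd74 its r lay between 0.730 and 0.910, and 3 of the 4 pairs passed. Its rho with them lay between 0.571 and 0.714, and none passed. Without Pracinostat replicate 3 and DMSO replicate 3, r lay between 0.296 and 0.718. Counts of Cd74 were 21.6, 17.6, 8.54 and 20.3 times Ciita in Pracinostat replicates 1 to 4 and 12.2, 12 and 24.2 times in DMSO replicates 1 to 3. The lowest and the highest ratio were those of Pracinostat replicate 3 and DMSO replicate 3, so the libraries that were both low in the set differed most in this ratio. The gene closest to Ciita by rank was H2-Ob (r = 0.878, rho = 0.929, exact permutation p = 0.00794, adjusted 0.0417), with r = 0.795 without the 2 farthest libraries.

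Outside the 4 tight genes most of the co-variation rested on those libraries. The median r of all 45 pairs was 0.194 without Pracinostat replicate 3 and DMSO replicate 3, and for the 36 pairs without H2-DMb1 it was 0.363, with a range of -0.41 to 0.983. H2-DMb2 was an exception in part, with r of 0.959 with H2-Aa, 0.859 with H2-Ab1, 0.760 with H2-Eb1 and 0.930 with Cd74 in the remaining 5 libraries. Pairs with H2-Oa, which had 0 counts in DMSO replicate 3, had r between -0.269 and 0.268 there. The 9 pairs with H2-DMb1 had r between -0.358 and 0.081 over all 7 libraries, and none passed. Its value in DMSO replicate 2, from 5 counts, lay -2.38 from its mean in log2, and the others between -0.058 and 0.794. By rank, rho was 0.571 with H2-Ab1, H2-Eb1 and Cd74 and -0.214 with H2-Ob and Ciita, the highest and lowest of the 9, and none passed. These values do not settle whether H2-DMb1 varied apart from the set.

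The level of the whole set, as the mean over the 10 genes of log2 CPM minus each gene's mean, was 0.686, 0.717, -0.983 and 0.05 in Pracinostat replicates 1 to 4 and 0.528, 0.260 and -1.26 in DMSO replicates 1 to 3. The same mean was taken over lists of other genes and set beside it, as a description over the same 7 libraries. The closest of 13 lists was that of 14 dendritic cell markers, at 0.449, 0.811, -1.36 and 0.205 with Pracinostat and 0.519, 0.518 and -1.14 with DMSO (r = 0.967, rho = 0.857). Without Pracinostat replicate 3 and DMSO replicate 3 its r was 0.753 and it was no longer the closest, since the factors that work with CIITA had 0.942, the other class II locus genes 0.816 and the interferon-gamma arm 0.764. All 14 of its genes were positively correlated with the class II level, with a median r of 0.791. So were all tested genes of the neutrophil and border-associated macrophage lists, given below. The dendritic cell list summed to 298 to 674 CPM with Pracinostat and 279 to 481 CPM with DMSO. In bulk RNA, fewer cells of a type and less RNA per cell cannot be told apart, and the part of dendritic cells in the class II levels was not tested.

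Single dendritic cell genes, named after their values were seen, differed in how closely they followed the pattern. Flt3, the growth factor receptor of dendritic cells and their precursors, stood at 44.0, 45.4, 8.66 and 32.3 CPM in Pracinostat replicates 1 to 4 and at 32.4, 40.6 and 12.3 CPM in DMSO replicates 1 to 3 (r = 0.944 with the class II level). Zbtb46, a transcription factor of classical dendritic cells, stood at 10.0, 15.8, 5.29 and 14.8 CPM in Pracinostat replicates 1 to 4 and at 17.9, 23.0 and 3.67 CPM in DMSO replicates 1 to 3. Clec9a, a receptor for dead cells on cross-presenting dendritic cells, was at 0.132 CPM in Pracinostat replicate 3 and 0 CPM in DMSO replicate 3, and between 1.92 and 10.5 CPM in the other 5 libraries. Ccr7, the chemokine receptor of migrating dendritic cells, was lowest in Pracinostat replicate 3 at 6.15 CPM, but Pracinostat replicate 4, at 13.4 CPM, lay below DMSO replicate 3, at 15.9 CPM. Others went otherwise: Naaa was highest in Pracinostat replicate 3 at 133.4 CPM (r = 0.303 with the class II level), Batf3 was lowest in Pracinostat replicate 2 at 0.609 CPM (r = 0.392), and Itgax in DMSO replicate 3, at 136.8 CPM, was the highest of the DMSO libraries (r = 0.479).

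Neutrophil markers also varied with the set (r = 0.902, rho = 0.786, and 0.527 without Pracinostat replicate 3 and DMSO replicate 3), with all 9 tested genes positive. Their list level was 1.97, 1.69, -3.20 and 1.26 in Pracinostat replicates 1 to 4 and 2.12, -1.13 and -2.71 in DMSO replicates 1 to 3. Homeostatic microglia markers ran the other way (r = -0.618), with all 12 genes negative, but r was 0.342 without Pracinostat replicate 3 and DMSO replicate 3. The list of monocyte-derived macrophages had r = 0.647, that of border-associated macrophages 0.530 and that of fibroblast transcripts 0.558. Without Pracinostat replicate 3 and DMSO replicate 3 these were 0.407, 0.142 and -0.049, in the same order. For border-associated macrophages r was 0.061 without Pracinostat replicate 3 alone and 0.891 without DMSO replicate 3 alone. Gene by gene over all 7 libraries, 14 of 15 monocyte-derived macrophage genes were positive (r from -0.104 to 0.915). All 13 border-associated genes were positive too (0.217 to 0.684). Neutrophil genes lay between 0.475 and 0.935 and dendritic cell genes between 0.303 and 0.944, so a positive r was not particular to dendritic cell genes. Total counts had r = -0.127, genes detected 0.352, Itgam -0.304, Ptprc 0.597 and Col1a1, a collagen gene of fibroblasts, 0.553. Without Pracinostat replicate 1 and DMSO replicate 2, the libraries with the most Col1a1, the r of Col1a1 was 0.912. The part of these cells in the class II levels was not tested.

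**Figure D5:**
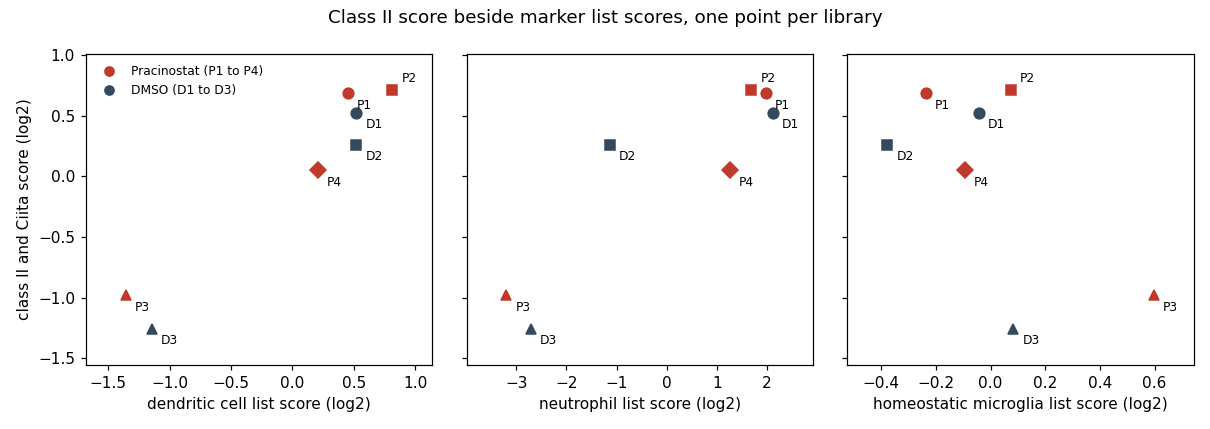
Mean centred log2 level of the 10 class II genes (vertical axis) against that of the dendritic cell, neutrophil and homeostatic microglia lists (horizontal axes, log2), 1 point per library. Pracinostat replicate 3 (P3) and DMSO replicate 3 (D3) lie at the low end of the class II, dendritic cell and neutrophil axes, and the other 5 libraries lie apart from them.

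The factors that work with CIITA at the X and Y boxes gave no call. The 7 genes of RFX, NF-Y and CREB had a mean level with r = 0.421, or 0.942 without Pracinostat replicate 3 and DMSO replicate 3, and 4 of the 7 were positively correlated. Of them 0 passed the test for treatment, with 3 positive and 4 negative log2 fold changes and a median of -0.01. Rfxap, the RFX-associated protein, stood at 19.8, 17.5, 18.9 and 32.6 CPM in Pracinostat replicates 1 to 4 and at 17.3, 12.3 and 15.3 CPM in DMSO replicates 1 to 3 (0.57 ± 0.32, SE, edgeR adjusted p = 0.9998). The groups did not overlap, and the lowest Pracinostat value was just above the highest DMSO one. Nfyc, an NF-Y subunit, had -0.33 ± 0.24 (SE).

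Of the genes that carry or restrain the interferon-gamma signal to Ciita, 8 were in the table, and 0 passed over all genes, with a median of 0.04 and 1 unadjusted p under 0.05. Their mean level had r = 0.495 with that of the class II genes, or 0.764 without Pracinostat replicate 3 and DMSO replicate 3. That gene was Irf1, which binds the interferon-responsive Ciita promoter. It stood at 193.4, 231.9, 187.9 and 161.6 CPM in Pracinostat replicates 1 to 4 and at 128.3, 136.2 and 126.7 CPM in DMSO replicates 1 to 3, and the groups did not overlap. Its log2 fold change was 0.57 ± 0.16 (SE), with an edgeR unadjusted p of 0.00325 and an adjusted p of 0.9955. Its r with the class II level was 0.332 and with Ciita 0.179.

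Among 7 factors of the myeloid and dendritic Ciita promoters, 0 passed, with 6 positive and 1 negative and a median of 0.16. Their mean level had r = 0.762 with that of the class II genes, or 0.116 without Pracinostat replicate 3 and DMSO replicate 3. Nfkb1, the p50 subunit of NF-kappaB, had 0.24 ± 0.14 (SE), and Irf8, a factor of the macrophage and dendritic lineages, had 0.16 ± 0.15 (SE). Irf4, the negative one, was at 20.4, 19.4, 5.22 and 20.02 CPM in Pracinostat replicates 1 to 4 and at 19.03, 27.9 and 11.9 CPM in DMSO replicates 1 to 3, with r = 0.760 to the class II level. Its 2 lowest libraries were the 2 that were low in class II. Over the 7 factors, 6 were positively and 1 was negatively correlated with the class II level (r from -0.491 to 0.838), and Irf8 had r = 0.254.

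Genes that act with class II at the cell surface and in the endosome gave no call either. Of 11 antigen processing and turnover genes 0 passed, with 6 positive and 5 negative, a median of 0.03 and r = 0.255 for their mean level (0.618 without DMSO replicate 2 and 0.073 without DMSO replicate 3). Cst3, the cathepsin inhibitor cystatin C, had the smallest p (0.44 ± 0.21, SE, unadjusted p by edgeR = 0.0517), followed by Ctss, the cathepsin that trims the invariant chain (0.21 ± 0.15, SE). Of the 4 costimulatory genes, which give T cells their second signal, 0 passed, and their mean level had r = 0.922 with that of the class II genes, or 0.038 without Pracinostat replicate 3 and DMSO replicate 3. Cd86 stood at 156.0, 173.4, 159.6 and 179.7 CPM in Pracinostat replicates 1 to 4 and at 122.7, 139.4 and 139.4 CPM in DMSO replicates 1 to 3, without overlap (0.32 ± 0.15, SE, edgeR unadjusted p = 0.05002, adjusted 0.9998). Icosl had 0.35 ± 0.20 (SE). Of 6 other tested genes of the class II locus, 0 passed (r = 0.483 for their mean level, and 0.024 without Pracinostat replicate 3 and 0.961 without DMSO replicate 3), and those with the smallest p were the immunoproteasome subunit Psmb9 (-0.46 ± 0.30, SE) and the bromodomain gene Brd2 (0.22 ± 0.18, SE).

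The marker lists gave 0 calls for treatment as well. The 14 dendritic cell genes had 6 positive and 8 negative log2 fold changes with a median of -0.02. Those with the smallest p were Itgax (0.77 ± 0.45, SE) and Itgae (-0.62 ± 0.44, SE), both with overlapping groups, while Clec9a had the largest estimate (1.69 ± 1.35, SE). Border-associated macrophage genes had 1 positive and 12 negative, with a median of -0.70, and monocyte-derived macrophage genes 2 positive and 13 negative, with a median of -0.37. Microglia genes had 11 positive and 1 negative, with a median of 0.21, and Tmem119 had the smallest p (0.54 ± 0.27, SE). Neutrophil genes had 8 positive and 1 negative, with a median of 0.59, and those with the smallest p were the collagenase Mmp8 (-0.88 ± 0.77, SE) and the G-CSF receptor Csf3r (0.17 ± 0.16, SE). The 5 tested fibroblast genes were all negative, with a median of -0.997, and of the B cell list 3 genes were tested, among them Cd79b (-0.80 ± 0.50, SE) and Ebf1 (-1.64 ± 1.16, SE). For all genes tested, 8282 of 15822 were positive.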

How the data were processed

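Paired-end libraries were made from 1 ng of total RNA with a stranded low-input kit, per the labels' protocols. Mouse build GRCm39 and the tools STAR, RSEM, DESeq2, Trim Galore, FastQC and MultiQC are listed in the submitters' processing notes. How strand was handled, and with which annotation, is not given in the sources used here. The authors deposited expected counts, as whole numbers for each gene symbol, with no normalization. H2-Eb1, H2-DMa, H2-Oa and Ciita overlap genes on the other strand in GENCODE M21, so their counts could include those genes' reads. H2-DMa and Cd74 also overlap an annotated gene on their own strand. Class II chains are polymorphic and NSG mice carry another haplotype than the reference, whose effect on the levels was not tested. The labels give 30 mg/kg for the dose, and 3 mg/kg where they describe preparing the drug.

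Differences were tested with edgeR 4.0.16 (R 4.3.3; TMM, filterByExpr minimum count 10, robust quasi-likelihood, two-sided), adjusted by Benjamini-Hochberg over 15822 genes with a threshold of 0.05, and DESeq2 1.42.0 and limma-voom (3.58.1) were alternatives. The fits were tested on simulated data. Correlations used log2 CPM with a prior count of 2 and scipy 1.17.1, and no p is given for the mean level of a list. Levels per length and open reading frames came from GENCODE M21, and promoters from RefSeq (GRCm38.p6). Deviations from the group means correlated at 0.076, 0.039 and 0.156 between groups for samples sharing replicate number 1, 2 or 3. For samples of unlike number they lay between -0.098 and 0.073. These small values do not settle whether the replicate numbers pair the samples. Totals of 10142753 to 16950597 counts set the precision, and the floor for a count of 0 covers counting error only. The genes and lists were chosen with earlier results of these data known. Text names all 10 genes, list genes with an unadjusted p under 0.05 or else the 2 with the smallest p, the 5 genes most alike in pattern, and Itgam and Ptprc. H2-Ea, Irf4, Cd22, Col1a1 and single dendritic cell genes were named after their values were seen, and some list genes are not reported here.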

Additional observations from a re-analysis of the deposited data

Results flagged for a closer look

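Of 63 values screened in the 4 Pracinostat libraries (listed genes and mean levels of lists), 8 had 1 library far from the other 3. Chance gives about 1 in 20 for independent, normally distributed values. Genes here share lists with each other and some were picked by their p, so 8 is not read as an excess. None of the 10 class II genes was among them. Pracinostat replicate 3, whose class II level was -0.983, stood apart in 3 lists. Its neutrophil level was -3.20, with 1.26 to 1.97 in Pracinostat replicates 1, 2 and 4 and -2.71 to 2.12 in the DMSO libraries. For border-associated macrophage genes it was at -1.71, while replicates 1, 2 and 4 lay between -0.05 and 0.25 and the DMSO libraries between 0.28 and 0.58. For T cell costimulation genes it was at -0.454, while replicates 1, 2 and 4 lay between 0.30 and 0.38 and the DMSO libraries between -0.79 and 0.12.

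Pracinostat replicate 4 stood apart in Rfxap, at 32.6 CPM, where replicates 1 to 3 had 17.5 to 19.8 CPM and the DMSO libraries 12.3 to 17.3 CPM. In Irf8 it had 434 CPM, where replicates 1 to 3 had 334 to 347 CPM and the DMSO libraries 302 to 346 CPM. In the level of antigen processing genes it was at -0.0145, where replicates 1 to 3 had 0.051 to 0.057 and the DMSO libraries -0.23 to 0.16. Pracinostat replicate 2 stood apart in Nfkb1, at 246 CPM, where replicates 1, 3 and 4 had 210 to 212 CPM and the DMSO libraries 184 to 190 CPM. In Dcn, Pracinostat replicate 1 was at 0.818 CPM, replicates 2 to 4 were at 0 CPM and the DMSO libraries at 0 to 1.84 CPM. The cause of these values was not tested.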

How the results depend on the processing

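In each of 16 alternatives 0 of the 10 genes passed. Over all genes tested, calls numbered 0 as reported, 63 without a low-count filter, 27 by DESeq2, 4 with the replicate number as a block, 0 to 3 without 1 library (3 without DMSO replicate 3), and 10 without DMSO replicate 3 and Pracinostat replicate 3 together, an alternative chosen after seeing the data. With the replicate block, in which Pracinostat replicate 4 has no partner, the log2 fold change was -0.061 for H2-Eb1, 0.91 for H2-Oa, -0.014 for Cd74 and 0.013 for Ciita, and it changed no call of the 10. By limma-voom it was 2.04 for H2-Oa and -0.028 for Cd74. Without 1 library it ranged from -0.27 to 0.49 for H2-Ab1, -0.11 to 0.52 for H2-Eb1, -0.072 to 0.23 for H2-DMa, -0.13 to 0.36 for H2-DMb2, -0.69 to 0.96 for H2-Oa and -0.21 to 0.43 for Cd74. H2-Aa (0.07 to 1.15), H2-DMb1 (0.19 to 1.13), H2-Ob (-0.69 to -0.17) and Ciita (-0.78 to -0.03) kept their sign. The 19 correlated pairs became 10 with library size only, 0 as deviations from the group means and 0 to 10 without 1 library (0 without Pracinostat replicate 1 or DMSO replicate 2), where fewer pairings are possible, while the median r stayed between 0.749 and 0.819. Each of these settings keeps at least 1 of the 2 low libraries. Without DMSO replicate 3 and Pracinostat replicate 3 together the median r was 0.194. Lists with r of at least 0.8 numbered 3 as reported and 3 to 7 without 1 library (7 without DMSO replicate 3). The cause of these shifts was not tested.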

Other observations

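The genes most alike in pattern to the class II level, out of 10027 ranked by r over the 7 libraries, were Bambi (r = 0.993, rho = 0.964), Ginm1 (0.987, 0.929), Ddr1 (0.984, 0.964), Rpl19-ps11 (0.979, 1.0) and Stk17b (0.973, 0.857), where each pair of values is r and rho. They top a ranking, so their r is a description. Bambi, a decoy receptor of TGF-beta signalling, stood at 8.52, 8.28, 1.59 and 5.03 CPM in Pracinostat replicates 1 to 4 and at 8.18, 6.48 and 1.55 CPM in DMSO replicates 1 to 3. Stk17b, a kinase of the DAP kinase family, stood at 96.4, 86.8, 37.8 and 68.9 CPM in Pracinostat replicates 1 to 4 and at 93.5, 84.6 and 41.6 CPM in DMSO replicates 1 to 3. All 5 had overlapping groups and an edgeR adjusted p of 0.9998.

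Other list genes with an unadjusted edgeR p under 0.05 were Mgst1, Emilin2 and S100a4 of the monocyte-derived macrophage list, Stab1, Folr2 and F13a1 of the border-associated macrophage list, and Cd4. All had negative log2 fold changes, and none passed after adjustment. Stab1, a scavenger receptor, stood at 1057, 954.6, 908.7 and 1275 CPM in Pracinostat replicates 1 to 4 and at 1797, 1836 and 1251 CPM in DMSO replicates 1 to 3 (-0.63 ± 0.17, SE, adjusted p = 0.986). Mgst1, a microsomal glutathione transferase, stood at 13.02, 9.31, 2.05 and 3.77 CPM in Pracinostat replicates 1 to 4 and at 21.0, 29.2 and 22.1 CPM in DMSO replicates 1 to 3 (-1.77 ± 0.51, SE), without overlap. Cd4 stood at 11.04, 1.77, 0.860 and 6.87 CPM in Pracinostat replicates 1 to 4 and at 10.5, 10.6 and 40.4 CPM in DMSO replicates 1 to 3 (-2.0 ± 0.87, SE).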
